A study of Mus musculus with 4 samples.

Results

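The matrix metalloproteinases, their relatives the ADAM and ADAMTS proteases, the ADAMTS-like proteins and the TIMP inhibitors were described in stromal cells of mouse pancreatic ductal adenocarcinoma. Genes were taken by name, as every symbol that starts with Mmp, Adam, Adamts, Adamtsl or Timp followed by a digit, which gave 83 of 22609 genes in the count table. They were 23 Mmp, 4 Timp, 32 Adam, 19 Adamts and 5 Adamtsl genes. Cells came from a spontaneous tumour model on the C57BL/6 background and were sorted on FAP, the fibroblast activation protein, a protease on the surface of tumour stromal cells. The FAP+ CD34+ fraction and the FAP+ CD34- fraction had 2 libraries each, isolated in duplicate experiments. The alleles of the model, the age and number of the animals, any pooling and any agent given to them were not given in the sources used here. Reported p-values rest on the spread between these libraries, with the spread of each gene estimated in part from other genes. The series concerns CXCL12 made by FAP-expressing fibroblasts, and the comparison made here asks how FAP+ cells that carry CD34, a surface sialomucin, differ from those that do not.

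Matrix metalloproteinases are secreted or membrane-bound zinc proteases that are made as inactive precursors and cut collagens, gelatin, proteoglycans and other proteins outside the cell. ADAMs are mostly membrane proteins, and several of them release the outer parts of growth factors and receptors from the cell surface. ADAMTS proteases are secreted, bind the matrix and cut proteoglycans or procollagens, while ADAMTS-like proteins share their accessory domains but have no protease domain. TIMPs block the active site of these enzymes, and fibroblasts are a known source of all of these families in tumours.

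The CD34+ libraries held 10322354 and 13649942 counts (replicate 1 first, here and throughout), against 13218444 and 14633561 for CD34-. Levels are CPM, a gene's count scaled to its column total, unless RPKM is named. The deposited RPKM are scaled to gene length as well, and their scaling by library differs from the column totals. Timp1, for instance, had 2556 CPM and 1610 RPKM in CD34+ replicate 1, against 1238 CPM and 1199 RPKM in CD34- replicate 2. RPKM levels are therefore read within a library. A count of 0 allows up to 3 counts, which is 0.205 to 0.291 CPM over the libraries, covering counting error only. Transcripts of Cd34 itself stood at 143 and 293 CPM in the CD34+ libraries, against 18.3 and 23.9 CPM in the CD34- libraries, and Fap was 79.0 and 39.8 CPM in CD34+ and 142 and 136 CPM in CD34- libraries. The 12 general fibroblast markers summed to 43489 and 43680 CPM in CD34+ and to 43808 and 39330 CPM in CD34- libraries, and all 12 averaged at least 1 CPM. Reads were seen for 19627 and 19613 genes in the CD34+ libraries, against 17452 and 16818 in the CD34- libraries, so both CD34+ libraries had more genes detected than either CD34- library.

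Among the larger differences were those of Mmp13 and Mmp9, a collagenase and a gelatinase gene that lay lower in CD34+ cells, and of Adam33, Adamtsl2, Adamtsl4 and Adamts5, which lay higher, though none passed the test over all genes. The inhibitors Timp1 and Timp3 and the abundant proteases Mmp2 and Mmp14 overlapped between the groups. All 83 genes together took 1.39% and 1.59% of the counts of the CD34+ libraries, against 1.20% and 1.61% for CD34-, and the groups overlapped. Of the 83 genes, 42 averaged at least 5 CPM over the 4 libraries, 28 averaged under 1 CPM, and Mmp1a and Adam39 had no read at all. A filter on low counts passed 56 of them to the test. Over all 13875 tested genes, 0 of the 56 passed at an adjusted p of 0.05 in either direction (edgeR quasi-likelihood test, Benjamini-Hochberg), against a background of 0% called higher and 0% called lower. At an unadjusted p of 0.05 (edgeR), 13 of the 56 lay higher in CD34+ cells, which is 23.2% against a background of 9.81%, and 7 lay lower, which is 12.5% against a background of 6.65%. The median log2 fold change (CD34+ over CD34-) of the 56 was 0.44, against -0.02 over all tested genes, and of the 42 from 5 CPM it was 0.28, against -0.09 over tested genes from 5 CPM. Of these 42, 16 lay higher in CD34+ cells with no overlap between the groups (38.1%, background 18.9%) and 12 lay lower (28.6%, background 31.2%).

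Some other fits did call members. DESeq2 called Adam33, Adamtsl4, Adamtsl2, Adamts5 and Mmp23 higher (5 of 56, background 2.85%) and Mmp13 and Mmp9 lower (2 of 56, background 1.3%). The exact test of edgeR named the same 5 and 2 genes (background 3.29% and 1.46%). Without a filter on low counts the quasi-likelihood test (edgeR) called 4 higher (background 0.924%) and 2 lower (background 0.653%) of 81, the same genes without Mmp23. On log2 RPKM + 1, limma called Adam33 higher (1 of 47, background 0.279%) and Mmp13 and Mmp9 lower (2 of 47, background 0.71%), and on log2 RPKM + 0.1 it called the same 3 genes (backgrounds 0.247% and 0.678%). Limma voom called 0. In bulk libraries, fewer cells that make a transcript and less of it per cell cannot be told apart, here and in all that follows.

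**Figure D1:**
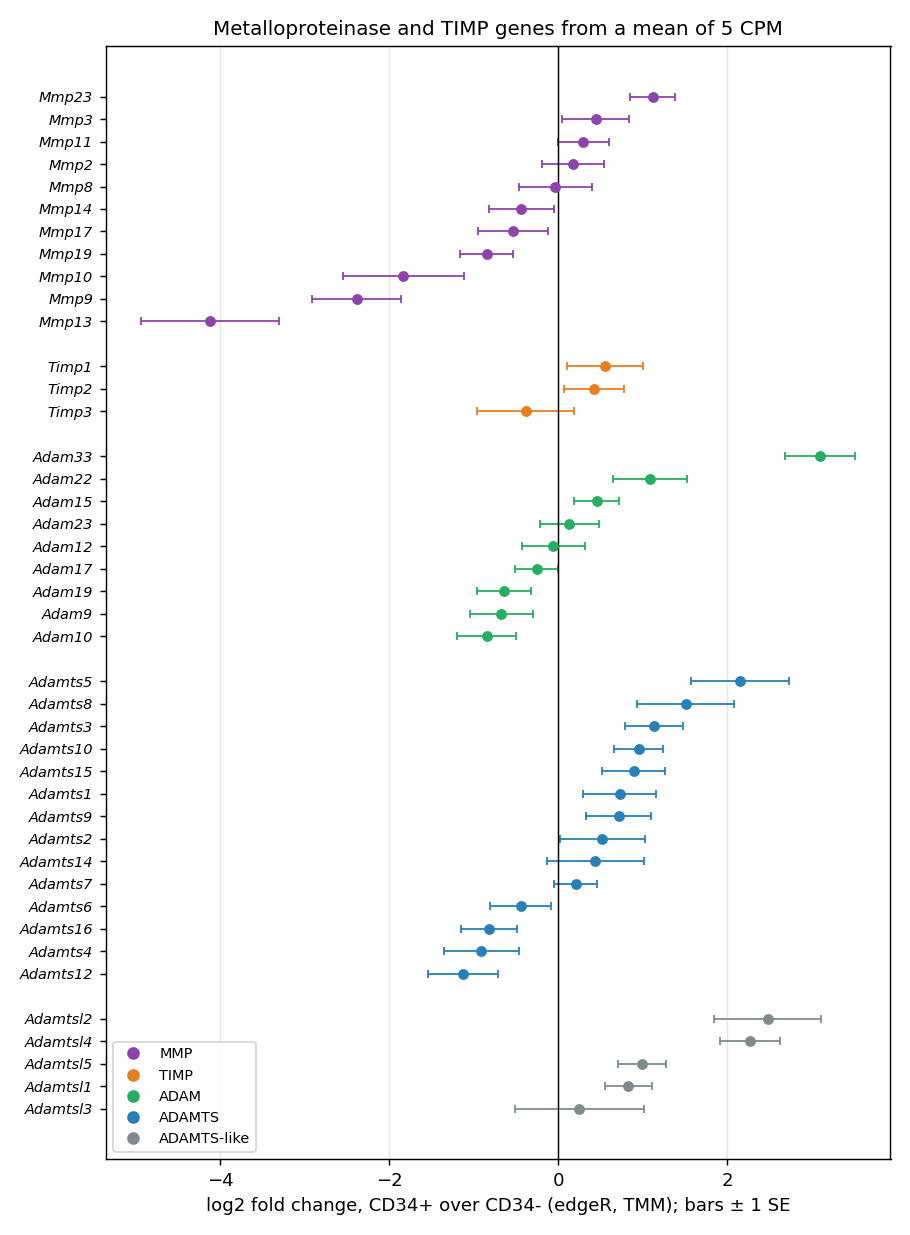
Log2 fold change of CD34+ over CD34- cells (x axis, edgeR with TMM scaling) for the 42 genes with a mean of at least 5 CPM, one row per gene and grouped by family; points are the fitted values and bars are 1 SE. Adam33 at 3.10 and Mmp13 at -4.12 stand at the ends, 5 of 5 Adamtsl genes are positive, and the Mmp genes spread to both sides of 0.

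The collagenase gene Mmp13, whose product cuts fibrillar collagen, had the largest difference of these genes. It was 15.98 and 13.0 CPM in the CD34+ libraries, against 81.8 and 414 CPM in the CD34- libraries. Every CD34+ library lay below every CD34- library, and the CD34- libraries also lay far apart from each other. The log2 fold change was -4.12 (SE 0.81, unadjusted p = 0.0021, adjusted p = 0.173, edgeR), and leaving out a library in turn gave values from -4.92 to -2.41, with -2.41 for the fit without CD34- replicate 2. DESeq2 called it (adjusted p = 2.9e-08), and over all alternatives its adjusted p lay between 2.9e-08 and 0.405. The other collagenase gene with a level to speak of, Mmp8, known from neutrophils, was 6.81 to 11.7 CPM over the 4 libraries, with overlapping groups (log2 fold change -0.03, SE 0.43). Mmp1b had 1 and 0 reads in CD34+ and 3 and 8 reads in CD34- libraries.

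Gelatinases cut denatured collagen and the type IV collagen of basement membranes, and the 2 genes differed in level and in their comparison. Mmp9 was 17.9 and 8.64 CPM in CD34+ cells and 45.9 and 92.8 CPM in CD34- libraries. The groups did not overlap, and the log2 fold change was -2.39 (SE 0.52, unadjusted p = 0.0035, adjusted p = 0.177, edgeR). Leaving out a library gave -3.04 (without CD34+ replicate 1) to -1.70 (without CD34- replicate 2). Its adjusted p was 5.1e-04 by DESeq2 and lay between 5.1e-04 and 0.472 over the alternatives. Mmp2 was 1901 and 2815 CPM in CD34+ and 2043 and 2169 CPM in CD34- libraries. The CD34- libraries thus lay between the CD34+ ones (log2 fold change 0.18, SE 0.37, adjusted p = 0.833, edgeR). On log2 RPKM + 1 the difference was -0.26, where the median over all genes was -0.36.

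Markers of cells known to make these proteases were read in the same libraries. The 10 myeloid markers summed to 275 and 163 CPM in CD34+ and 154 and 93.5 CPM in CD34- libraries, with 3 of the 10 higher in CD34+ cells without overlap and 0 lower. Over all genes with a read the shares were 30.6% higher and 18.2% lower, and among tested genes from 5 CPM 18.9% and 31.2%. The myeloid count of 3 was near the first share, but all 10 had positive log2 fold changes. Their median was 1.04, against -0.02 over all tested genes and 0.37 over tested genes under 5 CPM. At an unadjusted p of 0.05 (edgeR), 2 of the 10 lay higher and 0 lower (backgrounds 9.81% and 6.65%). Cd14 was the most abundant of them at 115 and 54.2 CPM in CD34+ cells, against 76.1 and 34.8 CPM in CD34- cells. Of the 10 neutrophil markers 9 were in the table and summed to 11.6 and 25.0 CPM in CD34+ and 20.3 and 14.8 CPM in CD34- libraries, led by Ltf at 3.20 to 15.02 CPM over the 4 libraries. Elane, which defines neutrophil precursors, had 1 and 0 reads in CD34+ and 2 and 0 reads in CD34- libraries. Of the 6 measured osteoblast and osteoclast markers 1 lay higher and 2 lower without overlap (backgrounds 30.6% and 18.2% over all genes with a read). With 6 genes nothing particular to the list can be read from these counts. Dmp1, a bone matrix gene, was 0.484 and 0.879 CPM in CD34+ and 10.9 and 14.6 CPM in CD34- libraries, and Sp7, a bone transcription factor gene, stayed under 1 CPM. Ibsp, another bone matrix gene, lay the other way at 5.62 and 1.03 CPM in CD34+ and 0.681 and 0.888 CPM in CD34- libraries, and Acp5 overlapped. Bglap, which encodes osteocalcin, had at most 1 read in any library, and the list, led by Ctsk, summed to 388 and 580 CPM in CD34+ and 495 and 604 CPM in CD34- libraries. The 10 pericyte and smooth muscle markers summed to 407 and 326 CPM in CD34+ and 515 and 597 CPM in CD34- libraries, 6 of the 10 lower in CD34+ cells without overlap (background 18.2% over all genes with a read, 31.2% from 5 CPM), and Cspg4, the most abundant, overlapped. The part of these cells in the values of Mmp13 and Mmp9 was not tested.

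**Figure D2:**
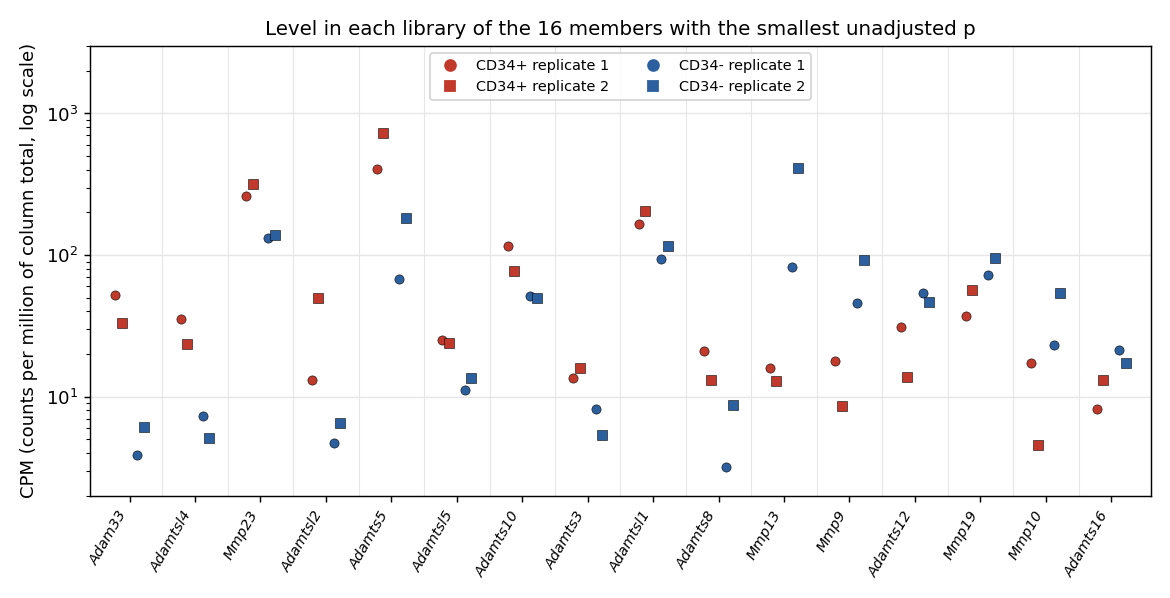
CPM in each library (y axis, log scale) of the 16 genes from 5 CPM with the smallest unadjusted p, those higher in CD34+ cells on the left and those lower on the right; circles are replicate 1, squares replicate 2, red CD34+ and blue CD34-. In each of the 16 the red points lie on one side of the blue ones, and the blue points of Mmp13 lie at 81.8 and 414 CPM.

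The stromelysin gene Mmp10 also lay lower, while Mmp3, its close relative with a broad range of matrix substrates, did not. Mmp10 was 17.3 and 4.54 CPM in CD34+ and 23.2 and 54.4 CPM in CD34- cells (log2 fold change -1.84, SE 0.72, adjusted p = 0.291, edgeR), with -3.13 without CD34+ replicate 1, -1.18 without CD34+ replicate 2 and -1.0 without CD34- replicate 2. Mmp3 was 144 and 220 CPM in CD34+ and 96.2 and 170 CPM in CD34- libraries, with overlap (0.45, SE 0.39, adjusted p = 0.589, edgeR). Mmp11, a stromelysin-like gene of tumour fibroblasts, ranged from 46.2 to 76.1 CPM over the 4 libraries with overlap. Its log2 fold change of 0.30 (SE 0.30) turned to -0.087 on log2 RPKM + 1, where the median over all genes was -0.36.

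Mmp13, Mmp3, Mmp10, Mmp8, Mmp12, Mmp27, Mmp20, Mmp7, Mmp1a and Mmp1b are 10 neighbours on mouse chromosome 9 with no other protein-coding gene between them, by RefSeq's annotation of GRCm38. The 10 promoters are of interest because neighbours of this row differed in their comparison. Of the 83 genes 52 had an entry in RefSeq's promoter table of GRCm38.p6 (250 bases before to 50 after the start). Each was searched for TGANTCA, which reads the same on both strands apart from N. This pattern takes in the AP-1 element, TGACTCA or TGAGTCA, but allows any base at N. The match of Mmp20, for instance, was TGAATCA. Of 12 promoters of the 10 neighbouring genes 8 held the pattern, 66.7% of them. Among all 32851 promoters 7.81% did, and among 9 promoters of other Mmp genes 0 did. Mmp9, Mmp2, Mmp16, Mmp17 and Mmp19 had no entry and were not searched. The sequences of Mmp13, Mmp10 and Mmp3 are given in 5′ to 3′ direction with the match in capitals; all 3 lie on the plus strand, at chr9:7272264-7272563, chr9:7502092-7502391 and chr9:7445572-7445871.
Mmp13: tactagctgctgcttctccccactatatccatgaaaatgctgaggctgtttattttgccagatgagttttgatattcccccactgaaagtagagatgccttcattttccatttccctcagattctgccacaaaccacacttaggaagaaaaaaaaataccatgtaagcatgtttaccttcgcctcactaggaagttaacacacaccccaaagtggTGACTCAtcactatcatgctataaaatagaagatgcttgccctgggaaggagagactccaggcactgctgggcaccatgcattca
Mmp10: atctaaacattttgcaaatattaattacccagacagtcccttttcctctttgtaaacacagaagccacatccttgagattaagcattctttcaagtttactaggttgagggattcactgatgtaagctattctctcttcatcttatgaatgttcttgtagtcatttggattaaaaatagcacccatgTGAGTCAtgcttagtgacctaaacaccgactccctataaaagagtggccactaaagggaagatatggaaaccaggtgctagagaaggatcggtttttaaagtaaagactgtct
Mmp3: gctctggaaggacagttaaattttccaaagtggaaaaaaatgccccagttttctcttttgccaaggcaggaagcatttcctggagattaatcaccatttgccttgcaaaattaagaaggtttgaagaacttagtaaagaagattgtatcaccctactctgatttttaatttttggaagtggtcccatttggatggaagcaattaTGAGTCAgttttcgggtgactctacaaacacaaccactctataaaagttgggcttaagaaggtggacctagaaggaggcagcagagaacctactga

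The match began at position -35 from the start in Mmp13, at -63 in Mmp10 and at -46 in Mmp3. All 3 promoters thus held the letters, whereas Mmp13 and Mmp10 lay lower in CD34+ cells without overlap and Mmp3 overlapped between the groups. In the wider set, 3 of 8 promoters of genes from 5 CPM that lay lower without overlap held a match. The counts were 0 of 11 for those that lay higher and 7.81% for all promoters. The matches were in Mmp13 and Mmp10, of the row of neighbours where 66.7% held it, and in an entry of Adam19, which had several. Not every such gene had an entry, and a part of the element in these levels was not tested. The remaining neighbours were rare. Mmp12, the macrophage elastase gene, ranged from 2.95 to 6.30 CPM with overlap, and Mmp7, the matrilysin gene of epithelia, was 8.62 and 1.47 CPM in CD34+ and 1.82 and 1.30 CPM in CD34- libraries. The epithelial markers, 10 in number with Tff1 at 0 in all libraries and Krt8 the most abundant, summed to 904 and 591 CPM in CD34+ and 843 and 437 CPM in CD34- libraries, and their part in the value of Mmp7 was not tested. Mmp27, Mmp20, Mmp1a and Mmp1b stayed under 1.3 CPM in every library.

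**Figure D3:**
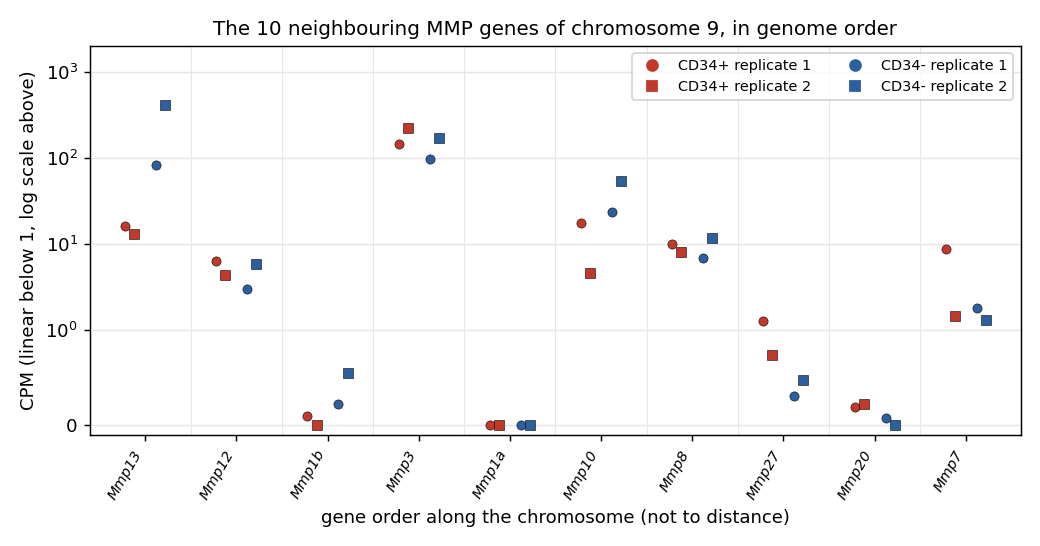
CPM in each library (y axis, linear below 1 and logarithmic above) of the 10 neighbouring Mmp genes of chromosome 9 in their order along the chromosome; circles are replicate 1, squares replicate 2, red CD34+ and blue CD34-. Mmp13 and Mmp10 have all red points below the blue ones, while the points of Mmp3, Mmp12 and Mmp8 are mixed.

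Among the remaining matrix metalloproteinases the directions were mixed. Mmp23, which encodes an unusual membrane-tethered member, was 262 and 320 CPM in CD34+ and 131 and 139 CPM in CD34- libraries. The groups did not overlap and the spread within each was small (log2 fold change 1.12, SE 0.27, unadjusted p = 0.0053, adjusted p = 0.187, edgeR; adjusted p = 0.018 by DESeq2, from 0.018 to 0.585 over the alternatives). Mib2 overlaps this gene in the annotation, at 387 and 603 counts in CD34+ and 471 and 450 counts in CD34- libraries, against 2701 and 4369 in CD34+ and 1734 and 2037 in CD34- libraries for Mmp23. Mmp19 was 37.1 and 56.4 CPM in CD34+ and 72.7 and 95.7 CPM in CD34- libraries, lower without overlap (-0.84, SE 0.31, adjusted p = 0.280, edgeR). The membrane-type gene Mmp14, whose product cuts collagen at the cell surface and activates the precursor of MMP2, was 1396 and 899 CPM in CD34+ and 1917 and 1264 CPM in CD34- libraries, with overlap (-0.44, SE 0.39, adjusted p = 0.591, edgeR). Mmp17, of the membrane type too, ranged from 7.65 to 16.3 CPM with overlap. Of the rarer members, Mmp16 was 3.97 and 2.56 CPM in CD34+ and 0.832 and 1.16 CPM in CD34- libraries, Mmp15 ranged from 1.64 to 3.74 CPM, and Mmp21, Mmp24, Mmp25 and Mmp28 stayed at or under 2.03 CPM.

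The inhibitor genes were among the most abundant of all these genes. Timp1 was 2556 and 1211 CPM in CD34+ and 1377 and 1238 CPM in CD34- libraries, and CD34+ replicate 1 stood above the other 3, which were close together (log2 fold change 0.55, SE 0.45, adjusted p = 0.554, edgeR; -0.12 without CD34+ replicate 1). Timp2, whose product takes part in the activation of MMP2 by MMP14, was 1413 and 2029 CPM in CD34+ and 1210 and 1371 CPM in CD34- libraries. The groups did not overlap, by a narrow margin (0.43, SE 0.35, adjusted p = 0.565, edgeR). On log2 RPKM + 1 the difference was -0.00043, where the median over all genes was -0.36. Timp3, whose product binds the matrix and also blocks several ADAM and ADAMTS proteases, was 2569 and 3261 CPM in CD34+ and 2020 and 5517 CPM in CD34- libraries. Its highest and lowest values were both in CD34- libraries (-0.39, SE 0.57, adjusted p = 0.752, edgeR), and without CD34- replicate 2 the log2 fold change was 0.62. Timp4 was rare, with 6 and 5 reads in CD34+ cells and 1 and 1 in CD34- libraries, and it overlaps Syn2 in the annotation, which had 74 and 147 reads in CD34+ and 17 and 65 in CD34- libraries.

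Levels of different genes were set side by side per length, by the deposited RPKM within each library. Because the RPKM scaling differs by library, the RPKM of a single gene is not compared between the groups. Timp1 was first of the 83 in all 4 libraries, at 1610 and 989 RPKM in CD34+ and 1265 and 1199 RPKM in CD34- libraries. That rank rests on the scaling to gene length, since by CPM Timp3 stood above Timp1 in all 4 libraries. Mmp2 was at 350 and 673 RPKM in CD34+ and 549 and 615 RPKM in CD34- libraries. Timp3 was at 308 and 507 RPKM in CD34+ and 353 and 1016 RPKM in CD34- libraries. Mmp14, whose groups overlapped by CPM, was at 301 and 252 RPKM in CD34+ and 603 and 419 RPKM in CD34- libraries. These ranges overlapped, so the order among Mmp2, Timp3 and Mmp14 differed between libraries. Timp2 and Adamts2 held ranks of 4 to 6, both above Mmp14 in CD34+ replicate 2, and Mmp23 held ranks of 7 to 10. Mmp13 held rank 30 and 28 in the CD34+ libraries, against rank 13 and 8 in the CD34- libraries, and Adamts5 held rank 10 and 11 in the CD34+ libraries, against rank 26 and 19 in the CD34- libraries. Summed over each family, the RPKM of the Mmp genes was 0.397 and 0.643 times that of the Timp genes in CD34+ cells and 0.720 and 0.570 times in CD34- libraries, with overlap.

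**Figure D4:**
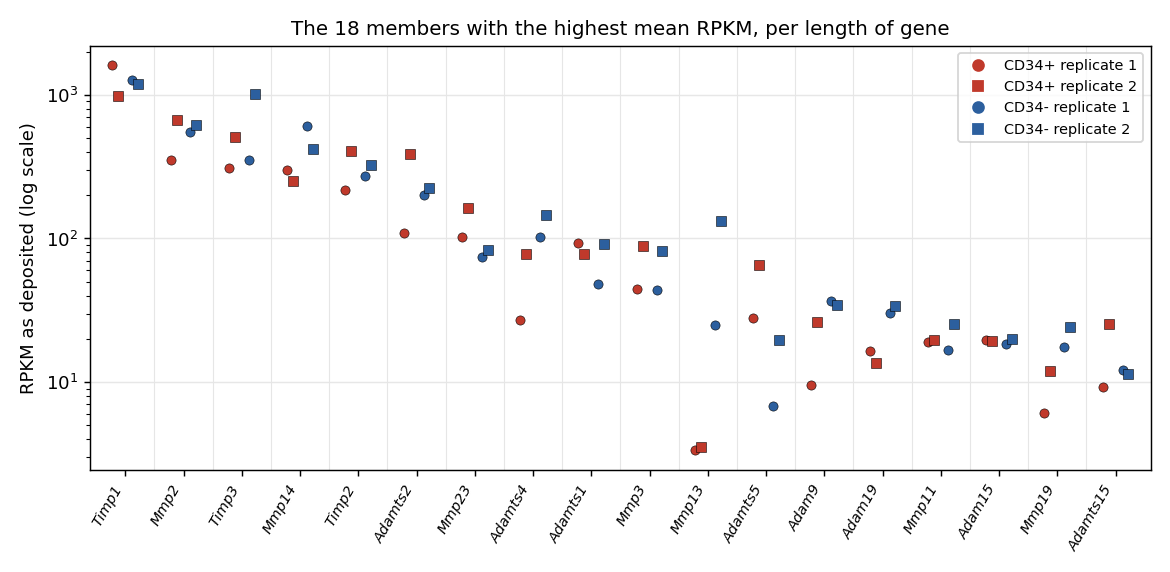
Deposited RPKM in each library (y axis, log scale) of the 18 genes with the highest mean RPKM, ordered by that mean; circles are replicate 1, squares replicate 2, red CD34+ and blue CD34-. Timp1 is highest in every library, and Mmp13 has the widest gap between the red points near 3.35 and 3.52 RPKM and the blue ones at 25.0 and 133 RPKM. The RPKM scaling differs by library, so gaps between red and blue points include that difference.

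Of the membrane-bound ADAM genes, Adam33 stood apart. It was 52.4 and 33.3 CPM in CD34+ cells and 3.86 and 6.15 CPM in CD34- libraries. Adam33, named in human asthma genetics and made by mesenchymal cells, ranked 22 of 13875 tested genes by its unadjusted p of 0.00025 (log2 fold change 3.10, SE 0.41, adjusted p = 0.155, edgeR). DESeq2 called it (adjusted p = 1.3e-08), and over the alternatives its adjusted p lay between 1.3e-08 and 0.509. Without a library in turn the log2 fold change was 2.71 to 3.56.

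The sheddases Adam10, which cuts Notch receptors, and Adam17, which releases TNF and EGF-family ligands, lay lower without overlap by CPM, Adam17 narrowly. Adam10 was 33.8 and 62.3 CPM in CD34+ and 79.4 and 94.6 CPM in CD34- libraries (-0.85, SE 0.35, adjusted p = 0.301, edgeR). Adam17 ranged from 55.1 to 65.7 CPM in CD34+ and from 66.7 to 78.7 CPM in CD34- libraries, a margin of about 1 CPM (-0.26, SE 0.25, adjusted p = 0.629, edgeR). That margin depends on the scaling, since overlap is judged on CPM by column total and not on the TMM scale. The same side was taken by Adam9, at 67.9 and 143 CPM in CD34+ and 180 and 159 CPM in CD34- libraries, and by Adam19, at 189 and 119 CPM in CD34+ and 237 and 250 CPM in CD34- libraries. Neither passed (adjusted p = 0.408 and 0.371, edgeR). Adam15 lay the other way at 105 and 78.9 CPM in CD34+ and 67.0 and 69.2 CPM in CD34- libraries (0.46, SE 0.26, adjusted p = 0.422, edgeR). It turned to -0.27 on log2 FPKM + 1, where the median over all genes was -0.37. Adam12, a gene of activated mesenchyme, was 47.9 and 44.3 CPM in CD34+ libraries, between the 68.4 and 30.4 CPM of the CD34- libraries. Of the 9 ADAM genes from 5 CPM, 3 lay higher and 4 lower without overlap, which is 33.3% and 44.4%, against backgrounds of 18.9% and 31.2% among tested genes from 5 CPM. The 4 include Adam17 with its narrow margin.

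ADAM proteins without an active site serve mainly as receptors in nerve tissue. Adam22 was 7.17 and 6.45 CPM in CD34+ and 4.09 and 2.46 CPM in CD34- libraries (1.09, SE 0.44, adjusted p = 0.298, edgeR), and Adam23 overlapped from 10.7 to 16.7 CPM. Adam8 and Adam28, known from leukocytes, and Adam11 averaged 3.10 to 4.98 CPM and overlapped. The 20 ADAM genes known mainly from testis and epididymis averaged at most 3.15 CPM, 18 of them under 1 CPM. Among these 20, 11 lay higher in CD34+ cells without overlap and 0 lower, all on few reads, in the same libraries in which more genes were detected overall. Among all 20996 genes with a read 30.6% lay higher and 18.2% lower without overlap.

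Of the 7 genes of ADAMTS proteases that cut aggrecan and versican, 0 passed over all genes (edgeR). At an unadjusted p of 0.05 (edgeR), 2 lay higher (28.6%, background 9.81%) and 0 lower (background 6.65%). From 5 CPM, 5 of 6 lay higher without overlap (83.3%, background 18.9%), and 1 lay lower. Adamts1 and Adamts9 did so by narrow margins. Those margins depend on the scaling, since overlap is judged on CPM by column total and not on the TMM scale. Adamts5, the main aggrecanase gene of mouse cartilage, was 403 and 725 CPM in CD34+ and 67.3 and 183 CPM in CD34- libraries. The groups did not overlap (2.15, SE 0.58, unadjusted p = 0.0096, adjusted p = 0.216, edgeR), and it was called by DESeq2 (adjusted p = 0.0021, from 0.0021 to 0.573 over the alternatives). Without CD34- replicate 1 the log2 fold change was 1.53, and without CD34- replicate 2 it was 3.15. Its neighbour on the chromosome, Adamts1, was 814 and 524 CPM in CD34+ and 289 and 520 CPM in CD34- libraries, so that the groups almost touched (0.73, SE 0.44, adjusted p = 0.435, edgeR). Adamts8 was 21.0 and 13.1 CPM in CD34+ and 3.18 and 8.68 CPM in CD34- libraries (1.51, SE 0.57, adjusted p = 0.284, edgeR; 0.89 without CD34- replicate 1 and 2.51 without CD34- replicate 2). Adamts15, the neighbour of Adamts8, was 98.1 and 208 CPM in CD34+ and 88.7 and 77.8 CPM in CD34- libraries (0.89, SE 0.38, adjusted p = 0.311, edgeR). For both neighbouring pairs, then, the members lay on the same side.

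Adamts9 was 58.8 and 28.4 CPM in CD34+ and 26.3 and 27.6 CPM in CD34- libraries, a margin under 1 CPM, and without CD34+ replicate 1 its log2 fold change of 0.72 (SE 0.39) shrank to 0.065. Adamts20 averaged 4.19 CPM and also lay higher without overlap. Adamts4 was the exception of the 7 genes. This aggrecanase gene was 177 and 396 CPM in CD34+ and 459 and 618 CPM in CD34- libraries (-0.91, SE 0.45, adjusted p = 0.364, edgeR), so that Adamts4 and Adamts5 lay on opposite sides. RPKM sets these genes side by side within a library only. By RPKM, Adamts5 was at 27.9 and 65.1 and Adamts4 at 26.96 and 78.4 in the CD34+ libraries. In the CD34- libraries Adamts5 was at 6.79 and 19.5 and Adamts4 at 102 and 145.

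The procollagen N-propeptidases trim the amino end of fibrillar procollagens. Adamts2, the most abundant ADAMTS gene by RPKM in all 4 libraries, was 727 and 1989 CPM in CD34+ and 916 and 983 CPM in CD34- libraries. The CD34+ libraries lay on both sides of the CD34- ones (0.52, SE 0.50, adjusted p = 0.617, edgeR). On log2 RPKM + 1 the difference was -0.051, where the median over all genes was -0.36. Adamts3, whose product also takes part in the processing of VEGF-C, was 13.5 and 15.97 CPM in CD34+ and 8.25 and 5.40 CPM in CD34- libraries, higher without overlap (1.14, SE 0.35, adjusted p = 0.230, edgeR). Adamts14 overlapped, from 4.99 to 16.95 CPM.

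The remaining ADAMTS genes were split. Adamts10, whose product binds fibrillin, was 116 and 77.6 CPM in CD34+ and 51.7 and 49.7 CPM in CD34- libraries (0.95, SE 0.29, adjusted p = 0.230, edgeR). Adamts12, which with Adamts7 cuts the matrix protein COMP, was 31.2 and 13.8 CPM in CD34+ and 53.6 and 46.5 CPM in CD34- libraries (-1.13, SE 0.41, adjusted p = 0.275, edgeR). Adamts16 was 8.23 and 13.1 CPM in CD34+ and 21.2 and 17.2 CPM in CD34- libraries (-0.82, SE 0.33, adjusted p = 0.298, edgeR). The first lay higher and the other 2 lower without overlap. Adamts6 lay narrowly lower by CPM, from 9.45 to 15.5 CPM in CD34+ and 16.1 to 18.2 CPM in CD34- libraries, and Adamts7 overlapped from 42.6 to 56.2 CPM. Adamts19 was 3.003 and 8.42 CPM in CD34+ and 0.0757 and 1.98 CPM in CD34- libraries, Adamts17 averaged 1.71 CPM, and Adamts13 and Adamts18 stayed under 1.2 CPM in every library. Over the 14 ADAMTS genes from 5 CPM, 7 lay higher and 4 lower without overlap (50% and 28.6%, backgrounds 18.9% and 31.2%). These counts include the narrow margins of Adamts1, Adamts9 and Adamts6, which depend on the scaling. The median log2 fold change of the 17 tested ADAMTS genes was 0.73.

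All 5 ADAMTS-like genes had positive log2 fold changes, with a median of 0.99, and 4 of the 5 lay higher in CD34+ cells without overlap (80%, background 18.9%). Adamtsl4, whose product associates with microfibrils, was 35.6 and 23.4 CPM in CD34+ and 7.34 and 5.13 CPM in CD34- libraries. It had the second smallest p of the 83 genes (2.27, SE 0.35, unadjusted p = 0.00059, adjusted p = 0.159, edgeR), and its adjusted p was 2.7e-05 by DESeq2, from 2.7e-05 to 0.509 over the alternatives. Adamtsl2, whose product binds fibrillin and the latent TGF-beta complex, was 13.2 and 49.4 CPM in CD34+ and 4.69 and 6.49 CPM in CD34- libraries. CD34+ replicate 2 was far above the rest (2.48, SE 0.64, unadjusted p = 0.0076, adjusted p = 0.203, edgeR), and leaving out a library gave log2 fold changes from 1.24, without that library, to 3.12.

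Adamtsl5 was 25.0 and 23.8 CPM in CD34+ and 11.1 and 13.6 CPM in CD34- libraries (0.99, SE 0.29, adjusted p = 0.227, edgeR). Adamtsl1, which encodes the matrix protein punctin, was 167 and 205 CPM in CD34+ and 93.7 and 116 CPM in CD34- libraries (0.83, SE 0.28, adjusted p = 0.252, edgeR). Both had CD34+ libraries close together and above both CD34- libraries. Adamtsl3 followed the replicate number rather than the sort, at 11.1 and 29.7 CPM in CD34+ and 6.13 and 27.5 CPM in CD34- libraries (0.25, SE 0.77, adjusted p = 0.889, edgeR; -0.62 without CD34+ replicate 2 and -0.51 without CD34- replicate 1). The 10 endothelial markers summed to 114 and 77.2 CPM in CD34+ and 42.2 and 35.3 CPM in CD34- libraries, 8 of the 10 higher without overlap (background 30.6% over all genes with a read) and 1 lower, with Vwf the most abundant at 27.1 and 16.3 CPM in CD34+ and 3.03 and 3.42 CPM in CD34- libraries. Of 8 mesothelial markers 7 were in the table and summed to 268 and 152 CPM in CD34+ and 139 and 103 CPM in CD34- libraries, 4 of the 7 higher without overlap (same background), led by Wt1. The 8 T and B cell markers summed to 22.3 and 4.91 CPM in CD34+ and 1.82 and 0.957 CPM in CD34- libraries, where Cd3e alone had 196 and 4 reads in CD34+ cells and 0 and 0 in CD34- libraries. The part of these cells in the higher values of ADAMTS and ADAMTS-like genes was not tested.

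Genes that act with these proteases were followed in 6 lists, and 0 genes of the lists passed over all genes (edgeR). In the plasminogen system, which activates metalloproteinase precursors, 1 of 5 tested genes lay higher and 1 lower at an unadjusted p of 0.05. The backgrounds at that p are 9.81% higher and 6.65% lower for this and the other lists, and with lists this small nothing particular to a list can be read from such counts. Serpine2, encoding the protease inhibitor nexin, was 729 and 324 CPM in CD34+ and 2535 and 3066 CPM in CD34- libraries (-2.39, SE 0.50, adjusted p = 0.173, edgeR). Plau, encoding urokinase, was 46.5 and 41.3 CPM in CD34+ and 28.1 and 22.3 CPM in CD34- libraries (0.83, SE 0.24, adjusted p = 0.227, edgeR). Neither gene's groups overlapped.

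Of 8 proprotein convertase and cofactor genes 1 lay higher and 0 lower at an unadjusted p of 0.05, namely the convertase gene Pcsk6, at 23.9 and 18.2 CPM in CD34+ and 5.98 and 3.14 CPM in CD34- libraries (2.24, SE 0.40, adjusted p = 0.171, edgeR). A2m, encoding a broad protease inhibitor, overlapped at 58.4 and 288 CPM in CD34+ and 50.8 and 72.4 CPM in CD34- libraries. Of 6 tested ADAM17 and ADAM10 regulators 0 lay higher and 1 lower, Tspan14, a partner of ADAM10, at 29.6 and 19.3 CPM in CD34+ and 47.6 and 46.2 CPM in CD34- libraries (-0.92, SE 0.30, adjusted p = 0.243, edgeR). Adam10 itself lay on the same side. The next smallest p was that of Rhbdf2, which overlapped.

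Among 4 tested astacin-family genes and cofactors, Pcolce2, an enhancer of procollagen C-propeptide removal, lay higher at 76.7 and 97.5 CPM in CD34+ and 29.7 and 39.8 CPM in CD34- libraries (1.33, SE 0.29, adjusted p = 0.177, edgeR), and Tll1, averaging 3.87 CPM, lay lower (-1.79, SE 0.49). Of the 5 genes of matrix cathepsins and cystatin C, 0 passed an adjusted and 0 an unadjusted p of 0.05 (edgeR), and the smallest p belonged to Cst3, the cystatin gene (adjusted p = 0.347, edgeR), and Ctss (adjusted p = 0.374, edgeR). Of 11 tested matrix substrates 1 lay higher and 0 lower at an unadjusted p of 0.05 (edgeR), namely Col2a1, at 7.17 and 3.74 CPM in CD34+ and 0.0757 and 0.137 CPM in CD34- libraries. Among the substrates from 5 CPM the smallest p belonged to Col4a2 (1201 and 928 CPM in CD34+ and 2503 and 1515 CPM in CD34- libraries, adjusted p = 0.318, edgeR), followed by Col4a1 (adjusted p = 0.359, edgeR).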

How the data were processed

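Per the submitters' processing notes, Bowtie2, TopHat2, HTSeq and edgeR were used with the mouse build mm9; versions, annotation and any use of strand were not given in the sources used here. Per the labels' protocols, RNA was amplified with MessageAmp. The authors deposited raw counts of reads per gene (22609 genes), RPKM for the same genes and FPKM for 22558 genes. Each table holds 14 further columns of no sample of this series, which were not used.

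CPM were computed here as counts over the column total. Counts were tested with edgeR 4.0.16 (R 4.3.3) by the quasi-likelihood test after filterByExpr and TMM scaling (factors 0.961 to 1.05), with the group as the only term, and p was adjusted by Benjamini-Hochberg over 13875 genes. SE is the log2 fold change over the square root of F. Levels and overlap between the groups thus rest on CPM by column total, and fold changes are on the TMM scale. The narrow margins of Adamts1, Adamts9, Adam17 and Adamts6 depend on that choice. All tests are two-sided. An exact permutation test with 2 against 2 libraries cannot go below p = 0.333 and was not run. The scripts were tested on simulated data. Counts of members stand beside the share of all genes called by the same rule. Alternatives were DESeq2 1.42.0, limma 3.58.1 (voom, or log2 of RPKM or FPKM with a pseudocount of 1 or 0.1 and a mean of at least 0.5), library-size and RLE scaling, a minimum of 1 CPM in 2 libraries, no filter, a replicate block and leaving out each library.

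Genes named with values are all Timp genes and all from a mean of 5 CPM, with per-library values for the 24 others of the smallest unadjusted p; per pathway list up to 2 from 5 CPM; and per marker list the most abundant. Mmp3, Mmp14, Mmp2, Adamts1, Adamts2, Adam12, Adamtsl3, rare genes, Dmp1, Ibsp, Sp7, Acp5, Elane, Bglap, Tll1, Col2a1 and the promoter of Mmp3 were added after their values were seen. The members and lists were chosen with earlier results of these data known. Where strand was not used, reads of overlapping genes cannot be told apart, and reads of the near-identical Mmp1a and Mmp1b, Adam6a and Adam6b, and Adam26a and Adam26b are uncertain.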

Additional observations from a re-analysis of the deposited data

How the results depend on the processing

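Members called higher and lower were 5 and 2 by DESeq2, 5 and 2 by edgeR's exact test, 4 and 2 without a filter, 3 and 0 with the replicate block (Adam33, Adamtsl4 and Adamts5), 1 and 2 on log2 RPKM + 1 and 1 and 2 on log2 RPKM + 0.1. They were 0 and 0 in the remaining alternatives, and in each of the 4 fits without 1 library, where the spread of the lone library is taken from the other fraction. All genes called higher and lower were 396 and 180 by DESeq2, 457 and 203 by the exact test, 194 and 137 without a filter, 39 and 23 of 13875 with the replicate block, 2 and 0 with library size only, 2 and 0 with a filter of 1 CPM in 2 libraries, 35 and 89 on log2 RPKM + 1, 31 and 85 with a pseudocount of 0.1, and 10 and 8 from FPKM; limma voom, RLE size factors and each left-out library gave 0 and 0. The RPKM and FPKM scales shift the median log2 fold change of all genes to -0.36 and -0.37, against -0.02. The deviations of same-numbered libraries correlated at 0.24 across genes, but no label says that the number marks shared animals.

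Of 42 genes from 5 CPM, 28 kept their sign in all alternatives run for them and 14 turned in at least 1; Adam22 did not pass the RPKM and FPKM filters and has no value there. On log2 RPKM + 1 and + 0.1 they were Timp2 (-0.00043 and -0.00063), Adamts2 (-0.051 and -0.053), Mmp11 (-0.087 and -0.090), Adamts7 (-0.18 and -0.21), Mmp2 (-0.26 and -0.26) and Adam23 (-0.15 and -0.22). On log2 FPKM + 1 they were Adam15 (-0.27), Timp1 (-0.099), Timp2 (-0.043), Adamts2 (-0.32), Mmp11 (-0.28), Adamts7 (-0.41), Adamts14 (-0.15), Mmp2 (-0.43) and Adam23 (-0.25). With limma voom and the replicate block Adam12 (0.032 and 0.032) and Mmp8 (0.0077 and 0.017) turned. Leaving out a library spanned 0 for Mmp17 (-0.96 to 0.0046), Timp1 (-0.12 to 0.98), Adamts2 (-0.37 to 1.05), Mmp11 (-0.027 to 0.66), Adamts14 (-0.18 to 1.26), Timp3 (-1.01 to 0.62), Mmp2 (-0.14 to 0.41), Adam23 (-0.24 to 0.57), Adamtsl3 (-0.62 to 1.82), Adam12 (-0.48 to 0.51) and Mmp8 (-0.46 to 0.49). Without a turn of sign, leaving out a library also moved the fold by over 1.5 times for Adamts12 (-1.87 to -0.66), Adamts15 (0.25 to 1.32), Adamts4 (-1.60 to -0.46) and Adam9 (-1.30 to -0.26). The same held for Mmp13, Mmp9, Mmp10, Adamts5, Adamts8, Adamts9 and Adamtsl2, with the values given for those genes above. Turns on the RPKM and FPKM scales are to be read against the shifted medians of those scales. The cause of the other changes was not tested. Members with few reads, such as Timp4, did not pass the filter and give no test at this depth.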
